A study of Mus musculus with 5 samples.

Results

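The genes described here are 10 genes of the AP-1 and immediate early response, Fos, Fosb, Fosl1, Jun, Junb, Jund, Atf3, Egr1, Ier2 and Ier3, out of 31053 genes in the list of the 7-day and tissue libraries and 32285 in the list of the 11-day library. They were taken by symbol, and each symbol matched a single entry in both lists. Their levels were followed by single-cell RNA-seq in mouse submandibular salivary gland organoids (mSGOs) and in freshly isolated gland tissue of C57BL/6 mice. There were 5 groups with 1 library each. Control 7-day mSGOs were not irradiated, photon and proton 7-day mSGOs had received 7 Gy of photons or of plateau protons on day 5, 11-day mSGOs were not irradiated, and the tissue came from non-irradiated glands. The mice of the 7-day and tissue libraries were 8 to 12 weeks old, and the labels give no age for the 11-day library. Organoids came from 4 animals that were pooled, so the libraries do not show variation between animals, and the 11-day mSGOs came from other animals and a separate run. For organoids the paper's methods describe dissociation to single cells with trypsin and a sort of 45000 cells that excluded propidium iodide. They give no separate account for the tissue library. Glands used for culture were first digested with collagenase and hyaluronidase, and all organoids grew with EGF, FGF2, insulin, dexamethasone, Y27632, R-spondin1 and Wnt3a. Dissociation of tissue is known to raise these genes, and no library was made without it, so levels before dissociation cannot be told apart from those after it.

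AP-1 is a transcription factor made of pairs of Fos and Jun family proteins that bind DNA through a basic region and a leucine zipper. In a resting cell most of these genes are nearly silent, and within minutes of a growth factor, a wound or another stress they are transcribed without new protein synthesis, after which their short-lived mRNAs decay. In epithelia AP-1 is known for its part in wound responses and keratinocyte differentiation.

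Positions are given in GRCm38.p6, the build of the RefSeq tables used, which is the assembly that the labels call mm10. The Fos family members lie on chromosome 12 (Fos, 85473890 to 85477274), 7 (Fosb, 19302696 to 19310118) and 19 (Fosl1, 5447698 to 5455938). The Jun family members lie on chromosome 4 (Jun, 95049036 to 95052222) and on chromosome 8 (Jund, 70697739 to 70700616, and Junb, 84976909 to 84978748). Atf3 lies on chromosome 1 (191170296 to 191183333), Egr1 on 18 (34861207 to 34864956), Ier2 on 8 (84661331 to 84662852) and Ier3 on 17 (35821713 to 35822911). In the canonical transcripts of GENCODE vM39, Jun, Junb, Jund and Ier2 had 1 exon and no intron. The introns of the others summed to between 109 bases in Ier3 and 11061 bases in Atf3.

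RefSeq promoters were used for 7 of the 10 genes, without Fosl1, Egr1 and Ier2. The last 120 bases before the annotated start are shown for Fos and Fosb and for their partners Jun and Junb. Fos and Fosb were higher after photons by over 0.5 on the log2 scale relative to the median gene. Capitals mark every match on either strand to TGACG, the core of a cyclic AMP response element, or to TGANTCA or TGANNTCA, the AP-1 type elements with a spacer of 1 or 2 bases. The full element TGACGTCA holds both TGACG and TGANNTCA. The sequences run 5′ to 3′ on the gene's strand, and distances count from the start that the promoter table uses. For Fosb that start lies inside the outer gene boundary given above, so part of its printed sequence is within that boundary. The start and the boundary match for Fos, Jun and Junb.
Fos, chr12:85473770-85473889, plus strand: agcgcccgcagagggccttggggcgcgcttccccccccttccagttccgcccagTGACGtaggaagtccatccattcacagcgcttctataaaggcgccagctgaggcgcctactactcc
Fosb, chr7:19310046-19310165, minus strand: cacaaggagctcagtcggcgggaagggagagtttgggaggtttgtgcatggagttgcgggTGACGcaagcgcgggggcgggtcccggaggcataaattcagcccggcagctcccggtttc
Jun, chr4:95052223-95052342, minus strand: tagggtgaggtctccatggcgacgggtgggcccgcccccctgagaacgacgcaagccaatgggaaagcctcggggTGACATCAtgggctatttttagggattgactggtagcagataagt
Junb, chr8:84978749-84978868, minus strand: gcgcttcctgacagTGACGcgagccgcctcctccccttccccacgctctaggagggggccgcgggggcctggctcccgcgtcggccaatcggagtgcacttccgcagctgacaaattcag
TGACG lay 66 bases before the start of Fos and 60 before that used for Fosb, and again 129 bases before the start of Fos. Over the 250 bases before the start, 4 of the 7 genes (Fos, Fosb, Junb and Atf3) held TGACG, beside 17.8% of all 32851 promoters in the table. TGANNTCA was found in 2 of the 7, Jun and Jund, beside 11.9% of all promoters. Neither TGANTCA (6.75% of all promoters), TGACGTCA (1.55%) nor the CArG box of serum response factor (1.47%) was matched exactly in any of the 7 windows. A match describes these letters only, and no binding was measured. Sequence more than 250 bases before the start was not searched, nor were the promoters of Fosl1, Egr1 and Ier2. The lack of a match is therefore not read as the absence of an element.

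After filtering, the libraries held between 1409 barcodes (fresh tissue) and 16085 barcodes (proton) with 5954567 to 32070703 unique molecular identifiers (UMIs), and between 33 and 98 barcodes were shared by any pair of deposited libraries, at most 0.559% of the smaller library. Barcodes of the 7-day libraries were shallow, with medians of 898.5 to 1049 UMIs, against 3025 in the 11-day library and 2389 in fresh tissue. Genes detected in a barcode followed another order. Fresh tissue was lowest with a median of 278, beside 447 in control, 517 in photon, 494 in proton and 1591.5 in 11-day mSGOs. Tissue UMIs thus fell on fewer genes, and the part of this in the comparisons with tissue was not tested. Most 7-day and tissue barcodes held little of the nuclear transcript Malat1. A Malat1 share of at least 1% of UMIs was reached by 16.0% of control, 10.0% of photon, 8.55% of proton and 11.2% of tissue barcodes, but by 98.8% of 11-day barcodes. In fresh tissue 11597 of 13547 deposited barcodes were left out because they held fewer than 200 genes. The 10 genes summed to 2475 CPM (counts per 1000000 UMIs) in control, 2272.5 in photon, 2568 in proton and 2392 in 11-day mSGOs and to 2000 in fresh tissue, so no library stood far from the others in the summed level. With 1 library per group no difference was tested. Intervals are 95% intervals that cover counting error only, and they leave out variation between animals, cultures and library preparations. Fewer cells that express a gene and less RNA per cell cannot be told apart in a summed level.

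Among the Fos family genes, the classical immediate early gene Fos was lowest in control 7-day mSGOs and highest in fresh tissue. Its level was 63.9 CPM (60.0 to 68.0) in control, 124 CPM in photon, 126 CPM in proton, 233 CPM in 11-day mSGOs and 527 CPM (509 to 546) in fresh tissue. The photon and proton intervals overlapped and the other libraries lay apart from each other. Fosb, a second inducible Fos protein, was measured at 14.3 CPM in control, 23.5 in photon, 21.1 in proton, 62.6 in 11-day mSGOs and 51.4 in fresh tissue. For Fosb the interval of the 11-day library (59.9 to 65.4) was above that of fresh tissue (45.8 to 57.5), while those of photon and proton overlapped. Fosl1, which encodes Fra-1, a Fos protein without the transactivation domain of Fos, had the opposite order. It was highest in control at 45.6 CPM (42.4 to 49.1), followed by 37.0 in photon, 35.4 in proton and 16.1 in 11-day mSGOs. In fresh tissue Fosl1 had 0 UMIs of 5954567, which allows up to 0.504 CPM at the limit of 3 counts. Against that limit Fosl1 was at least 90.5-fold lower in fresh tissue than in control 7-day mSGOs and at least 31.9-fold lower than in 11-day mSGOs.

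The Jun family genes, whose products pair with Fos proteins and with each other, were measured in every library. Jun was between 799 CPM in control and 943 CPM in 11-day mSGOs across the organoids, with 826 in photon and 908 in proton, and it was 393 CPM in fresh tissue. Junb, an early gene whose product can restrain Jun, had 438 CPM in control, 334 in photon, 419 in proton, 121 in 11-day mSGOs and 260 in fresh tissue. Over all barcodes the 11-day library was therefore the lowest for Junb and the highest for Jun. Among barcodes with 1% or more of Malat1 it was the lowest for Jun as well. Jun was 948 CPM there, beside 1156 in control, 1135 in photon, 1279 in proton and 2283 in fresh tissue. Jund, the Jun gene known for steady transcription in resting cells, stayed between 257 CPM in fresh tissue and 331 CPM in control, with 263 in photon, 325 in proton and 307 in 11-day mSGOs. The intervals of control (322 to 340) and proton (319 to 333) overlapped for Jund, as did those of photon and fresh tissue.

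Atf3, a stress-induced factor of the ATF family that pairs with Jun proteins, had 154 CPM in control, 161 in photon, 160 in proton, 218 in 11-day mSGOs and 194 in fresh tissue. The 7-day libraries did not differ beyond counting error for Atf3. Egr1, a zinc finger factor induced through serum response factor, had 24.1 CPM in control, 27.7 in photon, 21.7 in proton, 128 in 11-day mSGOs and 106 in fresh tissue. Like Fosb it was higher in the 11-day library and the tissue than in any 7-day library. Ier2, an immediate early gene that encodes a nuclear protein, had 292 CPM in control, 196 in photon, 258 in proton, 144 in 11-day mSGOs and 129 in fresh tissue. Ier3, an immediate early gene with a part in survival signalling, had 313 CPM in control, 279 in photon, 293 in proton, 220 in 11-day mSGOs and 83.3 in fresh tissue. Both were highest in control 7-day mSGOs and lowest in fresh tissue.

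**Figure D1:**
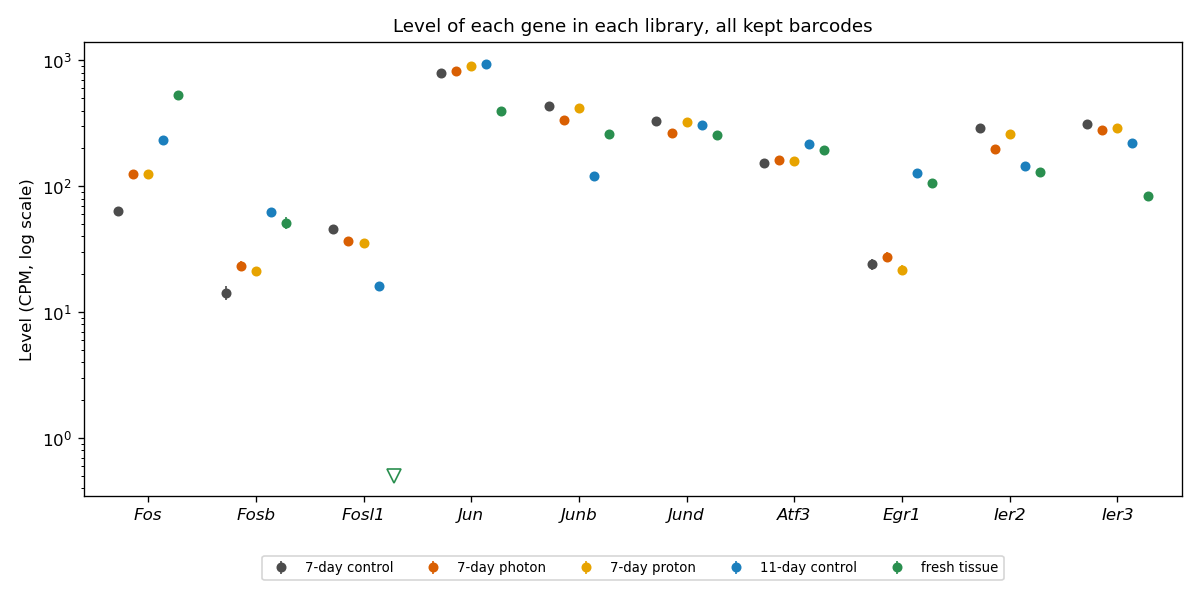
Level of each gene in CPM on a log axis in the 5 libraries, with 95% counting intervals as bars. The open triangle marks the limit of 3 counts for Fosl1 in fresh tissue, where 0 UMIs were found, and Fos spans 63.9 CPM in control to 527 CPM in fresh tissue.

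The first comparison concerned irradiation of mSGOs 2 days before collection. Values are differences of log2 CPM after 1 CPM was added to each level, given relative to the median of the genes with at least 200 UMIs in both libraries together and at least 20 CPM in the higher one, and a value past 0.5 in either direction is counted. Against control, 2 of the 10 genes were higher past this size after photons, Fos (0.86, counting interval 0.77 to 0.98) and Fosb (0.59, 0.41 to 0.86), beside 2.66% of 4369 genes. Ier2 was lower (-0.65, -0.71 to -0.60), 1 of the 10 beside 3.46% of genes. Junb (-0.47), Jund (-0.41) and Fosl1 (-0.38) lay below 0 within that size. Jun (-0.04) and Atf3 (-0.02) were near the median gene, Egr1 was at 0.11 with an interval that included 0, and Ier3 was at -0.25. After protons Fos was higher (0.87, 0.78 to 0.99), 1 of the 10 beside 2.78% of 4347 genes, and none was lower beside 3.61%. Fosb was at 0.43 (0.23 to 0.69), Fosl1 at -0.46, Ier2 at -0.28, Egr1 at -0.25, Ier3 at -0.20, Junb at -0.16, Jund at -0.12, Atf3 at -0.05 and Jun at 0.08. Photon and proton mSGOs were compared with the same control library, so their ratios are not independent of each other.

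The direction of Fos and Fosb was the same across settings, while Fosb after photons was within 0.5 in some of them. Fos was above the median gene after photons and after protons in all 16 alternative settings tried for each radiation, from 0.70 to 1.07 for photons and from 0.82 to 1.18 for protons. Fosb was above 0 under the same settings, at 0.30 to 0.96 and 0.14 to 0.70. Relative to the median gene, Fos was 1.82-fold (photon) and 1.83-fold (proton) the control level, which put it at percentiles 99.5 and 99.1 of all tested genes. In barcodes with 1% or more of Malat1, Fos was 83.2 CPM in control (563 UMIs), 182 in photon and 174 in proton, and in barcodes below that share it was 49.5, 95.4 and 104. The difference was therefore present in both kinds of barcode, while the share of barcodes in each kind differed between the libraries. Ier2 was lower after photons in both kinds as well, with 258 CPM in control and 175 in photon among the former and 317 and 207 CPM among the latter. Its relative ratio lay between -0.76 and -0.44 over the settings, and the value after protons was between -0.43 and -0.10. Directly between protons and photons, 0 of the 10 genes were past 0.5 in either direction, beside 0.684% of 4385 genes higher and 0.935% lower in protons. The nearest to it were Ier2 (0.38), Junb (0.31) and Jund (0.29), higher after protons, and Egr1 (-0.36). The ratios of Fos (0.01, -0.06 to 0.08), Fosl1 (-0.08, -0.21 to 0.05) and Atf3 (-0.03, -0.09 to 0.03) had counting intervals that included 0. No test was possible for any of these differences.

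**Figure D2:**
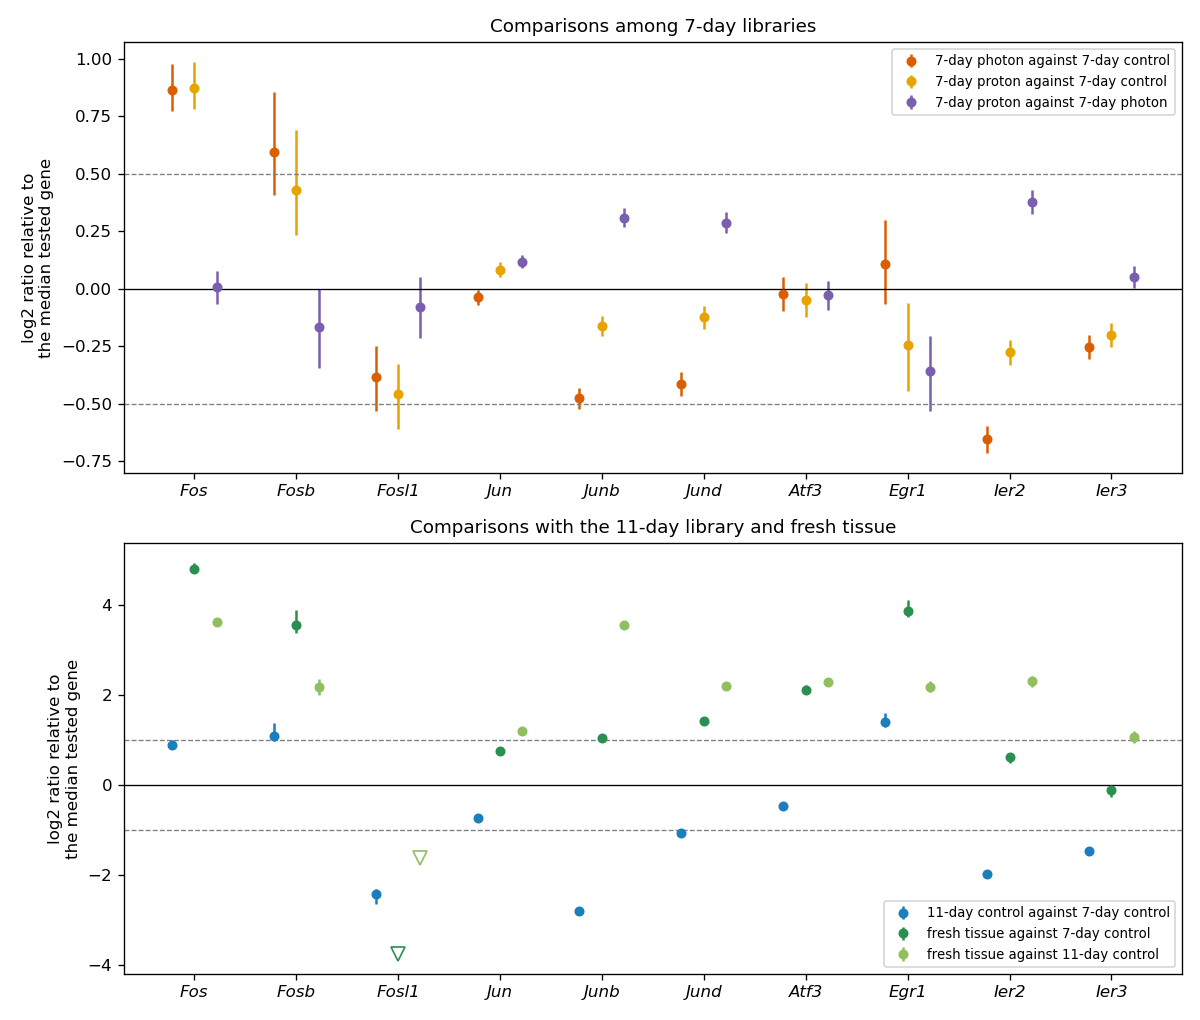
Log2 ratio of each gene relative to the median tested gene, with counting intervals as bars, in the comparisons among 7-day libraries (top) and with the 11-day library and fresh tissue (bottom). Dashed lines mark the sizes used for counting (0.5 and 1), open triangles mark Fosl1 with 0 UMIs in tissue, and Fos lies at 0.86 and 0.87 after photons and protons.

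The second comparison set 11-day against 7-day control mSGOs, with a counting size of 1 on the log2 scale. The median gene was itself 0.96 higher in the 11-day library, so values relative to it and as measured in CPM are both given. Relative to the median, Egr1 (1.40) and Fosb (1.09) were higher past 1, 2 of 10 beside 23.4% of 6608 genes. Junb (-2.81), Fosl1 (-2.41), Ier2 (-1.97), Ier3 (-1.47) and Jund (-1.07) were lower, 5 of 10 beside 19.5% of genes. Fos (0.89) lay just inside the limit, and Jun (-0.72) and Atf3 (-0.47) were below the median gene. Without centring, Fos was higher by 1.85, Fosb by 2.06 and Egr1 by 2.36. Junb (-1.84), Fosl1 (-1.45), Ier2 (-1.01), Ier3 (-0.51) and Jund (-0.11) were lower. The values of Jun (0.24) and Atf3 (0.49) were above 0, so their direction depends on the scale. Among barcodes with 1% or more of Malat1, Jun was at -0.29 (-0.32 to -0.25) and Atf3 at 0.36 without centring. The sign of Jun in CPM thus also depended on the barcodes compared. Fos, Fosb and Egr1 on one side and Junb, Fosl1, Ier2, Ier3 and Jund on the other kept their direction under all 16 alternatives.

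The header of the 11-day matrix names another software version (7.0.0) than those of the 7-day matrices (3.0.1), while the labels name version 5 for all, and which was used was not settled. The ratio to the 7-day control moved with the length of introns. The median relative ratio was -0.44 for the 97 tested genes with 1 exon, -0.88 for 1077 genes with introns under 5000 bases, -0.22 for 3497 genes with introns of 5000 to 50000 bases and 1.11 for 1925 genes with introns over 50000 bases. None of the 10 genes fell in the last class. Fos, Fosb, Egr1 and Ier3 were in the class at -0.88, and Fos (0.89), Fosb (1.09) and Egr1 (1.40) exceeded its upper quartile of -0.29. Junb (-2.81) and Ier2 (-1.97) lay below the lower quartile of -1.45 of the genes with 1 exon, and Fosl1 (-2.41) below the lower quartile of -0.85 of its class. Jund (-1.07) and Ier3 (-1.47), also counted as lower, lay within the quartiles of their classes (-1.45 to 0.42 and -1.61 to -0.29). The part of counting, of animals, of the run and of culture time in these ratios cannot be told apart.

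The third comparison set freshly isolated tissue against organoids. The median gene was -1.79 on the log2 scale against control 7-day mSGOs. Relative to the median, 6 of the 10 genes were higher past 1, beside 16.7% of 4249 genes. They were Fos (4.81), Egr1 (3.87), Fosb (3.56), Atf3 (2.12), Jund (1.42) and Junb (1.04). In CPM without centring, Fos (3.02), Egr1 (2.09), Fosb (1.78) and Atf3 (0.33) were still higher, whereas Jund (-0.36) and Junb (-0.75) were lower, so the direction of the last 2 flips with the scaling. Jun (0.77 relative, -1.02 in CPM) and Ier2 (0.62 relative, -1.17 in CPM) also changed sign, and Ier3 was -0.11 relative and -1.90 in CPM. Fosl1 was the 1 gene lower past the limit, beside 19.5% of genes, with 0 UMIs in tissue.

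Against 11-day mSGOs, 9 genes passed the minimums and all 9 were higher past 1 relative to a median gene at -2.46, beside 16.1% of 6557 genes. Fosl1 did not pass the minimums, and 0 of the 9 were lower beside 19.8% of genes. Fos (3.63) and Junb (3.55) were highest, followed by Ier2 (2.30), Atf3 (2.29), Jund (2.20), Egr1 (2.19), Fosb (2.18), Jun (1.20) and Ier3 (1.07). This comparison shifted with intron length as well, in the other direction from 11-day mSGOs against control. The median relative ratio was 0.70 for genes with 1 exon (quartiles -0.20 to 1.91), 0.63 for those with introns under 5000 bases (-0.03 to 1.30), 0.15 for those with introns of 5000 to 50000 bases and -0.74 for those over 50000 bases. Jun and Ier3 lay within the quartiles of their classes, and the other 7 exceeded the upper quartiles of theirs. In CPM without centring, Fos (1.17) and Junb (1.09) stayed above 0, and the other 7 were below it, from -0.16 for Ier2 to -1.39 for Ier3. Over all barcodes Fos was therefore higher in tissue than in organoids on either scale. Among barcodes below 1% of Malat1, which hold 1251 of the 1409 tissue barcodes, the direction in CPM turned against 11-day mSGOs, with Fos at 168 CPM in tissue and 219 CPM in 11-day mSGOs (log2 -0.38, -0.70 to -0.04). On the 11-day side that value rests on 115 of 9484 barcodes and 84 Fos UMIs. The median gene was at -2.43 there and the relative value of Fos was 2.05. Over all barcodes the 9 detected genes were all higher only relative to the median gene.

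Within fresh tissue the UMIs of the 9 detected genes lay more often in barcodes with Malat1 than UMIs in general. The 158 barcodes in which Malat1 made up 1% or more of UMIs held 12.9% of all UMIs but 72.2% of Fos, 78.7% of Egr1, 74.7% of Jun, 71.6% of Fosb and 42.2% of Jund UMIs. Fos was 2959 CPM (2839 to 3084) in these barcodes and 168 CPM (157 to 180) in the other 1251. Jun was 2283 and 114 CPM, Egr1 646 and 25.8 CPM, and Atf3 912 and 88.1 CPM. The summed level of the 10 genes was 9985 CPM in the former and 822 in the latter. In organoids the levels of both kinds of barcode lay closer together. In control 7-day mSGOs the summed level was 2873 and 2177 CPM, with Fos at 83.2 and 49.5 CPM and Jun at 1156 and 532 CPM.

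Among barcodes in which Malat1 made up 1% or more of UMIs, 9 of the 10 genes had their highest level in fresh tissue. Fos had 83.2 CPM in control, 182 in photon, 174 in proton, 233 in 11-day mSGOs and 2959 in tissue. Junb had 480, 361, 474, 121 and 1229 CPM in the same order, and Ier3 had 291, 286, 291, 219 and 367 CPM. Fosl1 again was found in all organoid libraries (16.0 to 48.3 CPM) and had 0 UMIs in tissue, where 765768 UMIs were examined. Against control 7-day mSGOs in these barcodes the median gene was at -0.43, and without centring Fos was higher by 5.14, Egr1 by 4.18, Fosb by 3.74, Atf3 by 2.41, Junb by 1.36, Jund by 1.35, Jun by 0.98, Ier2 by 0.83 and Ier3 by 0.33. In barcodes below 1% of Malat1 the median gene was at -2.28, and without centring 6 of the 9 detected genes were lower in tissue, Ier3 (-2.96), Jun (-2.21), Ier2 (-1.97), Junb (-1.79), Jund (-0.95) and Atf3 (-0.68, -0.85 to -0.53), while Fos (1.75), Fosb (0.74) and Egr1 (0.65) were higher. The sign of Jun, Junb, Jund, Atf3, Ier2 and Ier3 in CPM thus depended on which barcodes were compared. The cell types present differed as well, as described next, and the part of Malat1 content in the result was not tested apart from them.

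**Figure D3:**
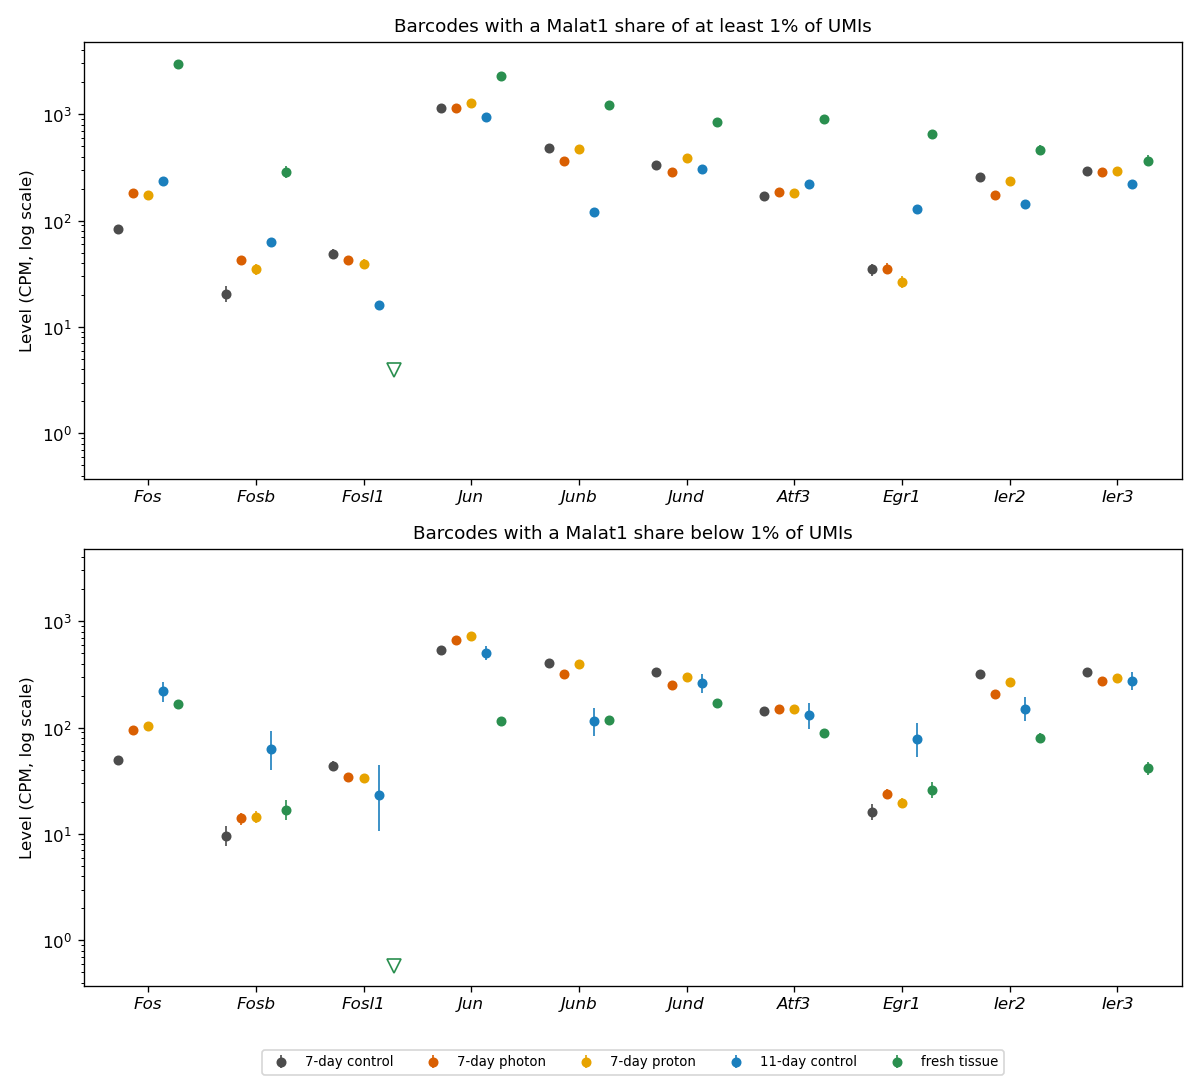
Level of each gene in CPM on a log axis in the 5 libraries, in barcodes with 1% or more of Malat1 (top) and below (bottom), with counting intervals as bars and open triangles at the limit of 3 counts. In the top panel Fos is 2959 CPM in fresh tissue and at most 233 CPM in the organoid libraries.

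Clusters of fresh tissue were built without the 10 genes and the related genes described below, and were named only from marker genes. Of 9 clusters, the endothelial-like cluster (132 barcodes, 10 of 10 endothelial markers at least 2-fold higher than in the others) had the highest level of 8 of the 9 detected genes. Fos was 3399 CPM (3214 to 3591) there, Jun 3037, Junb 1327, Jund 1014, Egr1 880, Ier2 672, Ier3 645 and Fosb 353 CPM. These barcodes held 6.28% of the UMIs of the library but 40.5% of its Fos, 48.5% of its Jun, 52.3% of its Egr1 and 48.6% of its Ier3 UMIs. Endothelial markers summed to 7664 CPM in that cluster and to at most 25.4 CPM in any cluster of control 7-day mSGOs and 23.3 CPM in any of 11-day mSGOs, so no cluster of those 2 organoid libraries had a comparable level. In the striated or granular duct-like cluster (104 barcodes, led by Foxi1 and Klk1b22) Fos was 1222 CPM, Atf3 702, Jun 564 and Jund 466 CPM. A cluster left unnamed and led by S100a8, Retnlg and S100a9 (48 barcodes) had the highest Atf3 at 852 CPM, with Fos at 1034 and Junb at 982 CPM. In it 10 of 11 macrophage markers were at least 2-fold higher than in the others and summed to 21091 CPM, against 6181 CPM in the cluster named macrophage-like. A further unnamed cluster led by Gzmc and Gzmb (42 barcodes) had Junb at 812 CPM and Fos at 622 CPM.

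The red cell-like cluster serves for orientation, since mature red cells make no mRNA, but it was mixed: red cell markers summed to 15878 CPM in it and acinar markers to 36006 CPM. Fos was 115 CPM there, Jun 75.0, Jund 194, Junb 145, Atf3 110 and Egr1 14.7 CPM. The larger acinar-like cluster (261 barcodes, median Malat1 share of 0) was below it for Fos (82.7 CPM) and the macrophage-like cluster was at 97.0 CPM, so no Fos beyond that of the mixed cluster is read in either. As the unnamed cluster led by S100a8 held more macrophage marker RNA and had high Fos, this says nothing of macrophages in general. After thinning each barcode to 1000 UMIs, a Fos UMI was found in 47.0% (38.2 to 55.8) of endothelial-like, 30.2% of duct-like, 11.7% (8.23 to 15.9) of red cell-like and 8.81% of the larger acinar-like cluster's barcodes, where median depths before thinning were 2440, 1717, 2311 and 2458 UMIs. The smaller acinar-like cluster was split. Its 39 barcodes with 1% or more of Malat1 had Fos at 3073 CPM, Jun at 1529 and Atf3 at 928 CPM, and its other 85 barcodes had Fos at 93.4 and Jun at 102 CPM. High Fos in barcodes with Malat1 was therefore not limited to endothelial-like barcodes, since it was 5333 CPM in 63 such barcodes of that cluster, 3155 CPM in 5 duct-like ones and 1162 CPM in 38 of the cluster led by S100a8. Without the endothelial-like, macrophage-like and red cell-like clusters 5 genes were higher and 1 lower past 1 against control, beside 16.9% and 19.9% of all tested genes. Against 11-day mSGOs 7 were higher in that subset, beside 16.3%. The unnamed clusters led by S100a8 and by Gzmc stayed in it. With acinar-like and duct-like barcodes alone, a set chosen after seeing the data, the counts were 6 and 1, beside 17.6% and 20.2%, and 9, beside 16.5%.

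**Figure D4:**
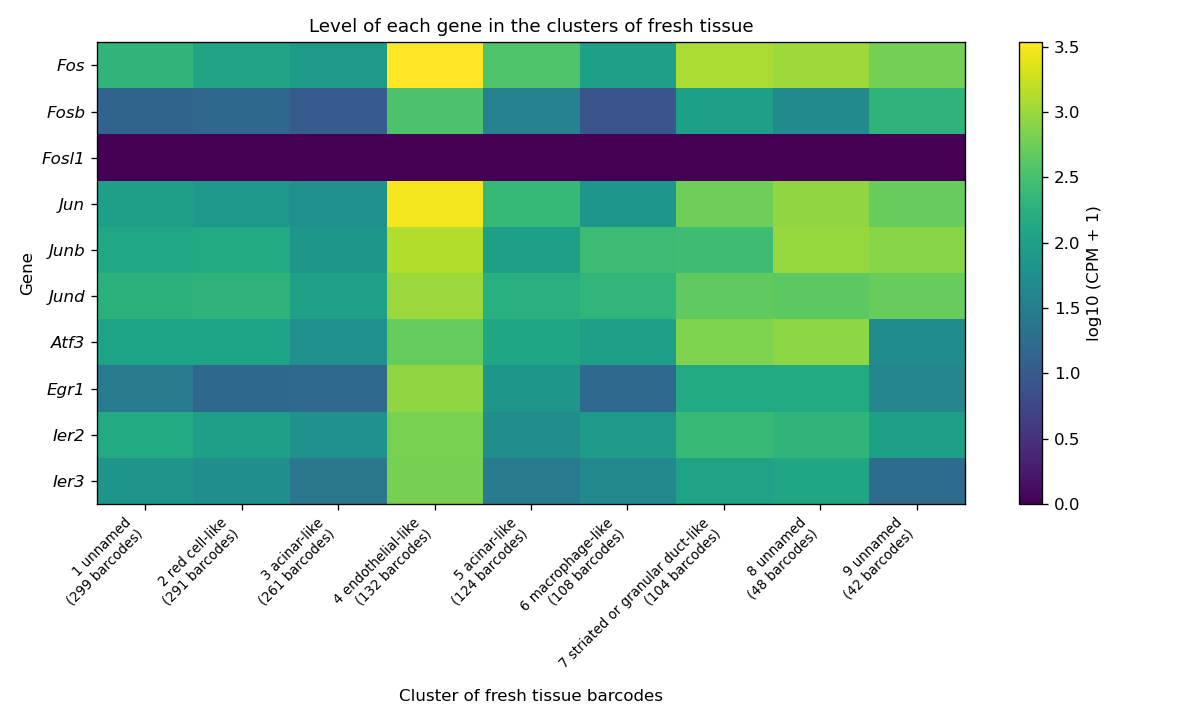
Level of the 10 genes, as log10 of CPM plus 1 in colour, in the 9 clusters of fresh tissue (columns, with the number of barcodes). The endothelial-like cluster has Fos at 3399 and Jun at 3037 CPM, and Fosl1 has 0 UMIs in each cluster.

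In organoids the genes varied less between clusters. Clusters of control 7-day mSGOs could not be named from markers. Their Fos level ran from 37.2 to 115 CPM, Jun from 281 to 1253 CPM, Egr1 from 7.4 to 46.9 CPM and Fosl1 from 40.0 to 52.1 CPM over 4 clusters. The intervals of Fosl1 overlapped between the lowest (33.3 to 47.6) and the highest (45.2 to 59.7). The highest Fos, Jun and Egr1 levels were in 1 cluster of 440 barcodes, led by Ptprz1 and Fermt1, with a median Malat1 share of 3.57%, in which 6 of 10 cycling markers were at least 2-fold higher and summed to 618 CPM against 340 in the others. The lowest were in a cluster of 1042 barcodes with a median Malat1 share of 0.0391%, in which Ier2 (390 CPM), Ier3 (372 CPM) and Jund (391 CPM) had their highest level. Fos, Jun and Egr1 on one side and Ier2, Ier3 and Jund on the other therefore differed in where they were high within 1 library. In 11-day mSGOs Fos was highest in an unnamed cluster led by Sprr2d, Psca and Krt6b, in which 8 of 10 cornifying squamous markers were at least 2-fold higher (400 CPM, 625 barcodes), and in one led by Acta2 and Igfbp2 (387 CPM, 347 barcodes). The former also had the highest Ier3 (447 CPM), Ier2 (230.5 CPM), Junb (204 CPM) and Jund (472 CPM). For Ier2, Junb and Jund its counting interval overlapped that of the cluster led by Acta2, and for Ier3 it did not. The cycling-like cluster (120 barcodes) had low Jun (417 CPM) and Fos (175 CPM) next to the whole library, unlike the 7-day cluster with cycling markers, and its cycling markers summed to 4046 CPM. Both organoid maxima of Fos stayed below the levels of the endothelial-like and duct-like tissue clusters.

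The number of the 10 genes found per barcode was compared after thinning to 1000 UMIs. Barcodes with fewer UMIs were left out, so 2557 of 6494 control, 8893 of 15610 photon, 7208 of 16085 proton, 9334 of 9484 11-day and 1394 of 1409 tissue barcodes entered. None was found in 10.6% of control, 12.6% of photon, 9.86% of proton and 16.8% of 11-day barcodes, but in 49.6% of 1394 tissue barcodes. At least 5 were found in 1.41%, 1.36%, 1.42%, 3.18% and 4.38% of barcodes in the same order. In tissue barcodes with 1% or more of Malat1 (157 barcodes) the share with at least 5 was 28.0%, and it was 1.37% in the others. Fresh tissue thus had both the highest share of barcodes without any of these genes and the highest share with at least 5. For single genes, a Jun UMI was found in 46.9% of control, 51.6% of photon, 53.3% of proton, 56.5% of 11-day and 12.3% of tissue barcodes, and a Fos UMI in 4.61%, 9.22%, 9.68%, 13.7% and 17.6%. The share for Fos followed the order of its CPM. With thinning to 500 UMIs, which kept all barcodes, it was 2.73%, 5.26%, 5.19%, 8.23% and 10.6%. For Junb the shares were 35.4%, 27.4%, 31.5%, 10.3% and 15.6%, for Ier2 25.2%, 18.0%, 22.2%, 12.5% and 11.4%, and for Ier3 26.0%, 23.8%, 23.8%, 16.2% and 7.39%. These genes were thus found in a higher share of barcodes in each 7-day library than in the 11-day or tissue library. An Egr1 UMI was found in 2.11%, 2.54%, 1.96%, 11.8% and 5.09% of barcodes, and a Fosl1 UMI in 4.22%, 3.58%, 3.25% and 1.70% of organoid barcodes and in 0 of 1394 tissue barcodes (exact upper bound 0.264%).

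Related genes were grouped by role, without a test, and their counts are to be read beside 2.66% higher and 3.46% lower of all tested genes after photons and 2.78% and 3.61% after protons. After photons, 3 of 13 other immediate early transcription factors were higher past 0.5, the Notch effector Hes1 (0.81), Sox4 (0.75) and the BMP-responsive Id1 (0.64), and Csrnp1 (-1.09) was lower, with a group median of 0.08. After protons 6 of 13 were higher, led by Hes1 (0.96) and Sox4 (0.80), and 1 was lower, Csrnp1 (-0.73). Of 12 measured bZIP factors related to Fos and Jun, 0 were past 0.5 in either direction after photons or protons. Of 12 measured epithelial genes known as AP-1 targets, Mmp14 (0.57) was higher after photons and Plaur (-1.15), Sprr1b (-0.64) and Vim (-0.58) were lower. After protons Mmp14 (0.50) was higher and Plaur (-0.79) and Sprr1b (-0.69) were lower. Of 22 other immediate early genes, 3 were higher and 4 lower after photons, with Cxcl2 (0.69) and Ccn2 (0.52) highest and Ier5l (-0.84) and F3 (-0.64) lowest. Of 21 measured after protons 3 were higher, Cxcl2 (0.63), Ccn2 (0.61) and Cxcl1 (0.61), and 2 lower, F3 (-0.63) and Ccn1 (-0.62). Of 10 heat shock genes, Hspa1a (-0.87) was lower after photons, and Hspa1b (-0.77) and Hspa1a (-0.71) were lower after protons. Of the genes that limit the response, the phosphatase genes Dusp6 (0.90) and Dusp4 (0.63) were higher after protons, 2 of 13. After photons Dusp4 (0.54) was higher and Errfi1 (-0.77), an inhibitor of EGF receptor signalling, was lower, out of 12. Medians of the 7 groups lay between -0.11 and 0.29, and the highest was that of the early transcription factors after protons. Directly between protons and photons no gene of these groups was past 0.5.

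In 11-day mSGOs most other early transcription factors and immediate early genes lay below the median gene, while the feedback genes were split. Genes with introns under 5000 bases had a median of -0.88 in this comparison, and 82.3% of them lay below 0. Of 13 other immediate early transcription factors 0 were higher and 7 lower past 1 (median -1.26), beside 23.4% higher and 19.5% lower of all tested genes, with Csrnp1 (-3.83) and Id3 (-3.09) lowest. Of 22 other immediate early genes 0 were higher and 9 lower, with Pim1 (-3.39) and Phlda1 (-3.19) lowest. Their median of -0.83 was close to that of the genes with introns under 5000 bases, and nothing is read from it about this group. Among 16 feedback and mRNA decay genes 3 were higher and 7 lower, with 8 above the median gene and a group median of -0.19. The lowest were Zfp36 (-3.41), which encodes an mRNA decay factor, and Dusp1 (-3.35), which encodes a phosphatase of MAP kinases. In CPM Dusp1 was 41.0 against 219 and Zfp36 15.1 against 87.1 in control. Of 11 heat shock genes 0 were higher and 6 lower. Of 19 related bZIP factors 6 were higher and 5 lower, from Bach2 (4.61) and Atf7 (2.59) to Cebpb (-2.09) and Maff (-2.32). Of 15 AP-1 targets 3 were higher and 6 lower, from Tnc (1.83) and Sprr1a (1.11) to Krt6a (-4.75) and Krt16 (-5.51). Upstream kinases and serum response factor partners were higher in 9 of 18, with Mrtfb (2.48) and Braf (2.46) highest. Their intron lengths were not looked up, and the part of the shift with intron length given above was not tested for them.

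In fresh tissue the groups differed in direction. All tested genes give 16.7% higher and 19.5% lower against control and 16.1% and 19.8% against 11-day mSGOs. Counts and values of the groups are relative to a median gene at -1.79 against control and -2.46 against 11-day mSGOs. A gene above 0 by less than that was not higher in CPM, which includes Zfp36 (1.77) against control. Of 21 other immediate early genes 3 were higher and 7 lower than in control (median -0.57), with Cxcl2 (2.22) and Rhob (2.19) highest and Areg (-4.26) and F3 (-3.54) lowest, and of 19 measured 6 were higher and 9 lower than in 11-day mSGOs. Of 11 related bZIP factors 1 was higher and 3 lower than in control (median -0.48), and of 17 measured 1 was higher and 7 lower than in 11-day mSGOs (median -0.83). Relative to the median gene, 4 of 11 heat shock genes were higher than in control past 1, led by Hspa1a (4.50) and Hspa1b (2.41), 1 was lower, Hspb1 (-3.82), and 7 of 11 were higher than in 11-day mSGOs. Hspa1a was 262 CPM in tissue, 39.0 in control and 10.1 in 11-day mSGOs, so it was higher in CPM as well. Feedback and decay genes were higher in 5 of 12 against control, led by Socs3 (4.28), the feedback inhibitor of cytokine signalling, and Zfp36 (1.77), and lower in 1, Errfi1 (-1.24). Against 11-day mSGOs 10 of 18 were higher and 2 lower. Of 15 other early transcription factors 3 were higher than in control, with Klf2 (7.37), a factor of endothelial cells, and Nr4a1 (2.62) highest, and 4 were lower, with Myc (-2.32) and Id3 (-2.12) lowest (median -0.49). Against 11-day mSGOs the balance of this group was the other way, with 4 of 13 higher, 2 lower and a median of 0.77. Of the epithelial genes known as AP-1 targets, 6 of 12 were lower than in control relative to the median gene and 2 were higher (Vim, 1.90, and Hmox1, 1.06). In CPM Hmox1 was lower in tissue. Krt6a was 1623 CPM in control and 1.2 CPM in tissue, and Sprr1a was 577 CPM in control and listed with 0 UMIs in tissue. Areg, an EGF receptor ligand in the group of other immediate early genes, was 143 CPM in control and 1.2 CPM in tissue.

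**Figure D5:**
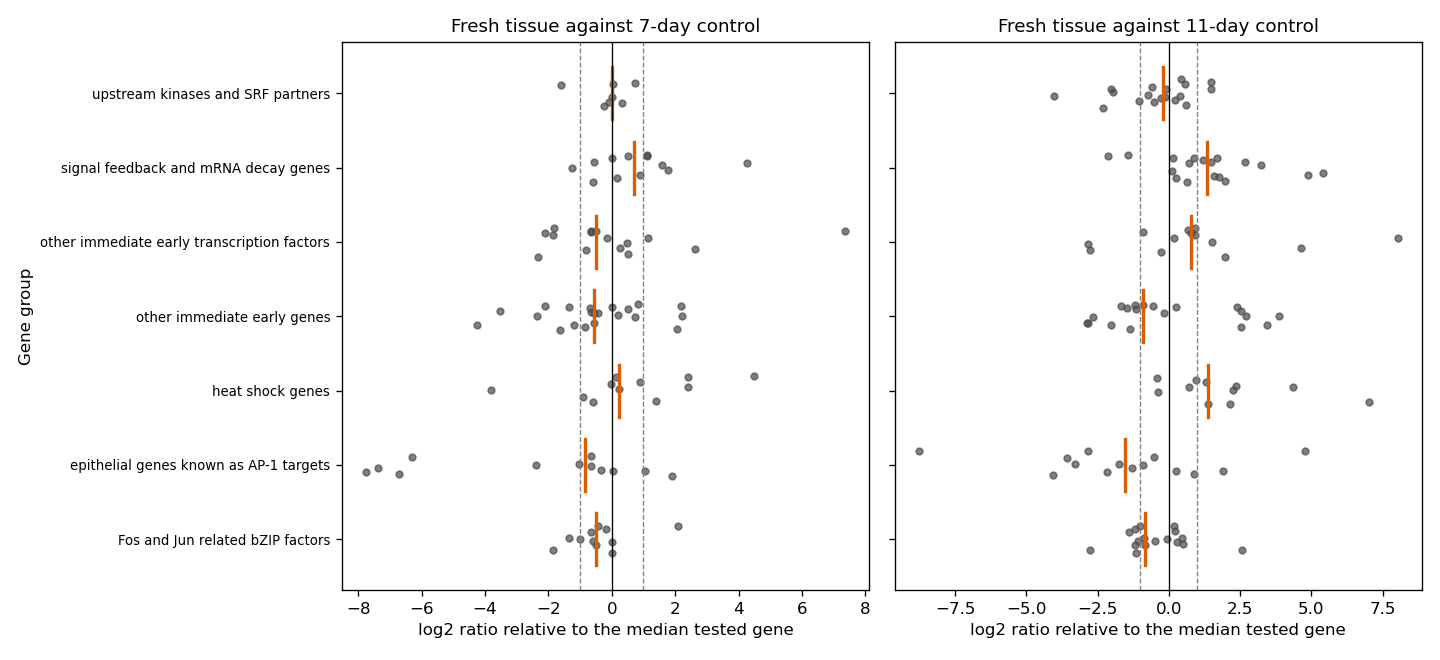
Log2 ratio of each measured gene of 7 related groups relative to the median tested gene, for fresh tissue against 7-day control (left) and 11-day control (right). Each point is a gene, orange bars are group medians and dashed lines mark 1 in each direction, and the median of the heat shock genes is 0.24 on the left and 1.38 on the right.

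Across the 21 clusters with at least 50 barcodes of the control, 11-day and tissue libraries, levels as log2 of CPM plus 1 were correlated with those of Fos and Fosl1 over 9578 genes. Clusters of a library share its depth, its run and its free RNA, so these values only describe the pattern. Egr1 (Pearson 0.85) and Fosb (0.77) were the members most like Fos, and Jun was at 0.38 and Fosl1 at -0.42. Outside the set the highest values were those of Arhgap31 (0.84), Gem (0.83), Igtp (0.83), Pde7b (0.83) and Limch1 (0.83). For Fosl1 they were Ccdc58, Pxdc1, Crabp2, Areg and Tnnt2 (each 0.97). The members most like Fosl1 were Ier3 (0.67) and Jun (0.59), but they ranked 3849 and 5300 among the 9578 genes. As the tissue clusters all lack Fosl1, its pattern is mainly that of organoid against tissue.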

How the data were processed

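Single-cell RNA-seq (10x Genomics, 3′ kit) of 5 mouse libraries, 1 per group, was analysed. The deposited matrices hold counts of UMIs per gene and barcode, which the authors made with Cell Ranger. The labels' processing notes name Cell Ranger 5 and mm10, the file headers name 3.0.1 for the 7-day and tissue libraries and 7.0.0 for the 11-day library, and the paper's methods name GRCm39. Version 7 counts intronic reads by default. Positions are those of GRCm38.p6, and no coordinates were taken from the matrices. The gene lists shared 30406 gene identifiers, and UMIs of genes outside the shared ones made up 0.0196% to 0.549% of a library.

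Barcodes with at least 200 genes and at most 5% mitochondrial UMIs that were not called doublets were kept, leaving 6494 barcodes in control, 15610 in photon, 16085 in proton, 9484 in 11-day mSGOs and 1409 in tissue. Scrublet marked 378, 2674, 1799, 855 and 9 barcodes in that order. Its automatic threshold was used for proton and tissue and the expected rate for the others, so doublet removal differed between the irradiated libraries. UMIs were summed per library or cluster and divided by the sum to give CPM. Intervals are exact Poisson or Clopper-Pearson intervals at 95% and exact conditional intervals for ratios. A level of 0 was given a limit of 3 counts per library. Log2 ratios used a pseudocount of 1 CPM and were centred on the median of genes with at least 200 UMIs and 20 CPM. Counting sizes were 0.5 among 7-day libraries and 1 elsewhere. As each group holds 1 library, there was no test. The 3 libraries without irradiation were each clustered with Leiden on 2000 variable genes, 30 components and 15 neighbours at a resolution of 0.8, without the described genes. Shares of barcodes were computed after thinning to 1000 UMIs. Python 3.11.15, numpy 2.4.6, scipy 1.17.1, pandas 2.3.3, scanpy 1.11.5 and leidenalg 0.10.2 were used, and the ratio and interval steps were tested on simulated data.

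The 10 genes, the related gene lists and the settings were chosen with earlier results of these data known. All 10 genes are described in every library. Genes of a related group were named from the 2 highest and 2 lowest of a comparison, though not for every group, and further ones where 5 or fewer were past the counting size. The nearest genes in pattern are the 5 most like Fos and Fosl1. RefSeq promoters were used for 7 genes. Entries on chromosome 18, where Egr1 lies, were left out when the 10 genes were looked up, but not from the share over all promoters. Protein sequences were not analysed here. The study's gene threshold of 2500 was run once as the minimum and once as the maximum.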

Additional observations from a re-analysis of the deposited data

Results flagged for a closer look

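Jun lay on opposite sides of the median gene in the irradiated 7-day libraries. Its relative log2 ratio to control was -0.037 after photons and 0.083 after protons, with counting intervals that both left out 0, while its level was 799 CPM in control, 826 in photon and 908 in proton mSGOs. In CPM Jun was therefore above control in both libraries. Both signs also turned with the setting. Over 16 alternatives the ratio ran from -0.23 to 0.18 after photons, above 0 in 4, and from -0.055 to 0.27 after protons, above 0 in 14. Below 1% of Malat1 it was 0.18 after photons and 0.27 after protons. The difference was not tested, since each group holds 1 library.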

How the results depend on the processing

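Counts of genes past the counting size were recomputed under 16 alternatives, and 18 for fresh tissue, of which 162 of 200 values stayed within 1.5 times the count reported. Of 1000 single-gene ratios 423 moved by more than counting error, and 11 of genes past the counting size reversed, a tally that leaves out sign changes of genes within it, of 100 shares of barcodes 97 moved with the thinning, and of 40 highest cluster levels 11 moved with the clustering, so shares and cluster maxima hold for their setting only. After photons the 2 higher genes were 1 with a pseudocount of 5 CPM, all deposited barcodes, at least 2500 genes, a Malat1 share below 1%, thinning or equal weight per barcode. The 1 lower gene was 2 with fewer than 2500 genes, a Malat1 share below 1%, thinning or median-of-ratios scaling, and 0 with equal weight. After protons the 1 higher gene was 2 with a Malat1 share of at least 1%, at least 2000 UMIs or no centring, and the count of 0 lower genes was 1 with no mitochondrial limit, fewer than 2500 genes or a Malat1 share below 1%. Between protons and photons 1 gene was higher with at least 2500 genes. In 11-day mSGOs the 2 higher genes were 1 with a pseudocount of 5 CPM, all barcodes, no mitochondrial limit, at least 2500 genes or either Malat1 class and 3 with fewer than 2500 genes or no centring, and the 5 lower genes were 3 with at least 2500 genes, a Malat1 share below 1% or no centring.

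For tissue against 7-day control the 6 higher genes were 3 with at least 2500 genes or no centring, and the 1 lower gene was 0 with thinning and 4 without centring, where 5.18% of all tested genes were higher and 78.7% lower. For tissue against 11-day mSGOs the 9 higher genes were 5 with at least 2500 genes or a Malat1 share below 1% and 2 without centring, and the count of 0 lower genes was 1 with at least 2500 genes, without the highest genes in the total or with minimums of 50 UMIs and 5 CPM, and 2 without centring, where 2.85% of all tested genes were higher and 90.7% lower. Without centring the sign turned against 7-day control for Junb (-0.75), Jund (-0.36), Jun (-1.02) and Ier2 (-1.17), the last 2 of which had not been past the size, and against 11-day mSGOs for Fosb (-0.28), Jun (-1.26), Jund (-0.26), Atf3 (-0.17), Egr1 (-0.27), Ier2 (-0.16) and Ier3 (-1.39). Ier3 also reversed against 11-day mSGOs with at least 2500 genes (-2.09) and with a Malat1 share below 1% (-0.27). Centring by its construction moves every ratio by the median, and the cause of the other shifts was not tested. Leaving out the endothelial-like, macrophage-like and red cell-like clusters gave 5 higher and 1 lower against control and 7 higher against 11-day mSGOs. Keeping acinar-like and duct-like clusters alone, an alternative chosen after seeing the data, gave 6 and 1, and 9 higher. No paired analysis was possible because each group holds 1 library, and leaving out a replicate was not possible for the same reason. Depth limits Fosb, Egr1 and Fosl1 most, with 226, 381 and 721 UMIs in the 7-day control.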
